A study of Mus musculus with 8 samples.

Results

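Axon guidance ligands and receptors were followed in neural tissue of mouse embryos labelled as lacking both Lin28 genes. The set was defined by gene name alone and holds the netrins and their receptors, the Slits and Robos, the semaphorins, plexins and neuropilins, and the ephrins and Eph receptors. Of all 24420 genes in the total RNA table, 67 matched these names with at least 20 counts summed over its 4 libraries, 34 of them ligands and 33 receptors. Another 3 names, Ntn5, Plxna4os1 and Plxnb3, were under that count minimum. The polysomal table lists far fewer genes, and 35 of the 67 are among them.

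Growing axons read guidance cues through receptors on the growth cone. Netrin attracts axons that carry Dcc and repels those that carry Unc5 receptors. Slits act through Robo receptors and keep commissural axons from crossing the midline again. Secreted class 3 semaphorins act through a neuropilin that binds the ligand and a plexin that signals. Membrane-bound semaphorins bind plexins directly, and ephrins and Eph receptors signal at contacts between cells in both directions. In the embryonic neural tube, netrin and Slits come largely from the floor plate and the progenitor zone, and the commissural neurons of the dorsal cord are the classical cells that read them.

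The tissue came from embryos at E11.5, a stage when the first commissural axons grow, and is labelled brain, while the protocol text speaks of neural tube. Embryos were Lin28a-/-;b-/- double knockouts (dKO) or wildtype (WT) controls. The products of Lin28a and Lin28b bind RNA: they keep let-7 microRNA precursors from maturing and attach to many messenger RNAs. Total RNA and polysomal RNA (RNA that sediments with ribosomes) were sequenced, which gave 4 groups of 2 libraries: dKO total, WT total, dKO polysomal and WT polysomal. Whether replicates are different embryos or litters is not in the labels. The p-values therefore reflect only the spread between these libraries, which may be technical. Strain, sex and the making of the alleles are not stated in the labels.

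Total RNA libraries held 15060560 to 15768767 counts each. The listed genes of the polysomal table summed to 3740980 and 5164982 counts in dKO and to 14874143 and 15414712 in WT, which are sums over part of a library and not its depth. The dKO polysomal replicates differed most from each other, with a chi-square per degree of freedom of 24.6, against 2.75 to 3.02 for the other pairs. As a check of the labels, Lin28a had 103 and 120 counts in dKO total RNA, against 1151 and 1091 in WT, and Lin28b had 755 and 855, against 2014 and 1852. Markers of neurons (10 of 10 genes) and of neural progenitors (10 of 10) were detected in every total RNA library, and so were those of endothelium, mesenchyme, neural crest and red blood cells, so RNA of non-neural cells was present. The polysomal table lists 7 of the 10 neuron markers and 7 of the 10 progenitor markers. In bulk RNA, fewer cells of a type and less RNA per cell cannot be told apart.

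Because Lin28 loss is known to raise mature let-7, the let-7 sequence and its matches in the guidance genes are shown here. MicroRNAs themselves were not measured in these libraries. The 9 mature let-7 and miR-98 sequences of RefSeq (GRCm38.p6) used here share 1 seed, bases 2 to 8, in capitals below. A copy of let-7a lies at chr13:48538239-48538260, minus strand, and let-7i at chr10:122985698-122985719, minus strand.
mmu-let-7a-5p: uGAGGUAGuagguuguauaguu
mmu-let-7i-5p: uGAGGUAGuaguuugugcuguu

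The search covered the sense strand of the longest annotated 3′ UTR of each gene (GENCODE M21, GRCm38) for the letters CTACCTCA, and for the shorter forms CTACCTC and TACCTCA where they were not part of the longer one. The full match occurred in 7 of the 67 guidance genes, 10.4%, and in 3.81% of the 13677 tested genes with an annotated 3′ UTR. These shares were not matched for 3′ UTR length, on which holding a match also depends, so they do not show an enrichment. A shorter form alone occurred in 12 guidance genes. The matches of the 7 genes are given below in 22 bases of transcript, with the match in capitals, beside the first such match of Hmga2, a chromatin protein and classical let-7 target. They lie in the 3′ UTRs of Ntn1 (chr11:68212757-68212778, minus strand), Sema4c (chr1:36549458-36549479, minus strand), Sema4f (chr6:82911940-82911961, minus strand) and Sema4g (chr19:45003049-45003070, plus strand) among the ligands. Among the receptors they lie in Nrp2 (chr1:62798047-62798068, plus strand), Plxnc1 (chr10:94791275-94791296, minus strand) and Plxnd1 (chr6:115955369-115955390, minus strand), and the Hmga2 match is at chr10:120364224-120364245, minus strand.
Ntn1: aggacaagacatagCTACCTCA
Sema4c: tgcacaggcaccagCTACCTCA
Sema4f: aagtggggatatacCTACCTCA
Sema4g: ctcccatccctgtcCTACCTCA
Nrp2: taccttgaggtgtcCTACCTCA
Plxnc1: atactatttctaacCTACCTCA
Plxnd1: catatcccagaacaCTACCTCA
Hmga2: ccgacattcaatttCTACCTCA

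The 7 guidance genes with the full match did not move one way. In total RNA 2 of them were lower in dKO (Ntn1 and Sema4c), 2 were higher (Plxnc1 and Sema4g) and 3 did not pass the test, with a median log2 fold change of -0.0039. Over all tested genes, those with the full match had a median of -0.06 and 23.8% were lower, against a median near 0 and 16.5% lower among genes without any match. Of the 12 guidance genes with a shorter form alone, 1 was higher and 2 were lower, and of the 48 with none, 12 were higher and 5 lower. A match describes letters in the transcript and does not show that let-7 binds there. This comparison was chosen after values were seen and was not tested.

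CPM is a gene's read count scaled to the size of its library, and dividing it by the exon length in kb lets genes be compared roughly. That length covers every exon annotated for any transcript of the gene, and can exceed the length of the transcripts present. The guidance genes spanned from 85.1 in dKO and 78.4 in WT for Efna2, an ephrin tethered by a lipid anchor, to 0.187 in dKO and 0.134 in WT for the receptor Epha1, all in CPM per kb. Within the families of receptors, the most abundant in WT per exon length were Ephb2 (17.8 in dKO and 18.2 in WT), Plxna1 (33.5 in dKO and 32.9 in WT), Dcc (29.2 in dKO and 25.5 in WT), Robo1 (11.1 in dKO and 10.6 in WT) and Nrp2 (5.59 in dKO and 5.39 in WT CPM per kb). Among ligand families besides the ephrins they were Ntn1 (29.4 in dKO and 32.8 in WT), Sema4c (19.1 in dKO and 22 in WT), Slit1 (4.97 in dKO and 5.11 in WT) and Sema3f (3.16 in dKO and 3.61 in WT CPM per kb). By this measure netrin and its receptor Dcc stood at similar levels, while Slits and secreted semaphorins were several times lower. The ranks depend on the length used. In CPM without it, scaled over the genes shared with polysomal RNA, Slit2 (128.7 and 126.8) stood above Slit1 (42.97 and 47.4) in WT total RNA. Ntn1 had 300.7 and 314.8 CPM there. The neighbours Plxna1 and Plxnb2 (33.2 in dKO and 32.7 in WT CPM per kb) lay as close together as the replicates of either. Epha1 shares an exon stretch with Zyx on the opposite strand, and Ntn3 one with Tbc1d24 on the same strand, and the labels give no strand setting for the counting, so both counts are uncertain.

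**Figure D1:**
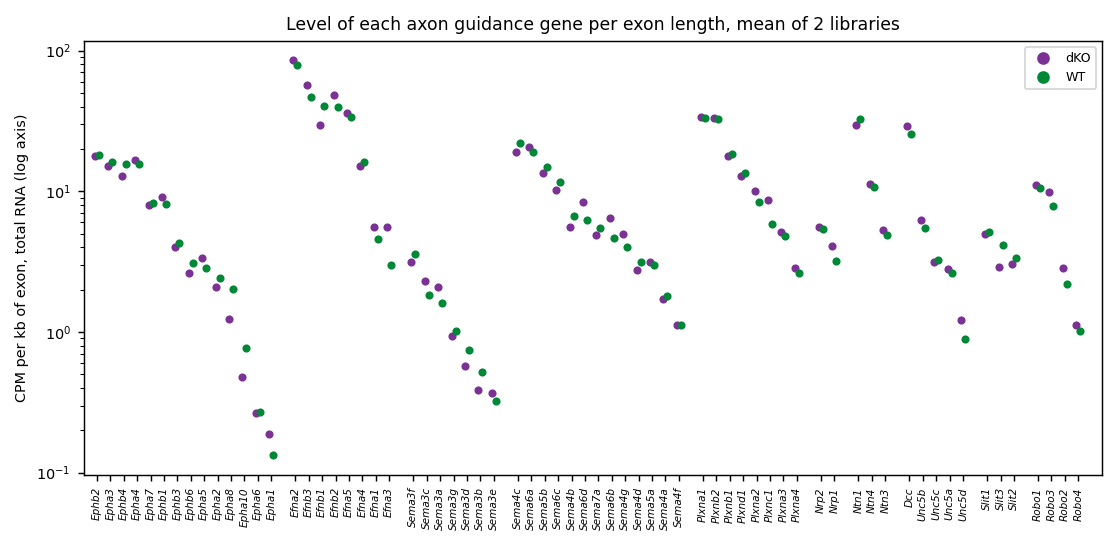
Level of each of the 67 genes in total RNA, as CPM per kb of exon on a log axis, with dKO (purple, left) beside WT (green), each the mean of 2 libraries, grouped by family in the order Eph receptors, ephrins, class 3 semaphorins, class 4 to 7 semaphorins, plexins, neuropilins, netrins, netrin receptors, Slits and Robos. Efna2 is the highest, and within a gene the genotypes lie close together.

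The first comparison asked how guidance genes differed between dKO and WT total RNA. Genes were tested with edgeR's quasi-likelihood test over the whole table, and a gene was called at a Benjamini-Hochberg adjusted p below 0.05. Of the 67 guidance genes, 15 were higher and 9 lower in dKO, and 43 did not pass. In the background of 14594 tested genes, 30.7% were called, 14.7% higher and 16% lower, so that the share of 35.8% called among guidance genes lies near it. Their median log2 fold change was 0.05, against 0.003 for all tested genes. Changes were small: 5 of the 24 called genes reached a log2 fold change of at least 0.5 in size. Over all 67 genes, both dKO libraries lay above both WT libraries for 27 and below them for 19, while 21 overlapped. Groups that did not overlap thus included genes that were not called, and a lack of overlap alone does not set a gene apart. Its share over all tested genes was not computed. For 10 of the 24 the call was kept under every alternative run, and these were Efna3, Efnb1, Efnb2, Efnb3, Ephb4, Nrp1, Plxna2, Plxnc1, Robo3 and Sema6d. Of these, Efna3, Efnb2, Nrp1, Plxna2, Plxnc1 and Sema6d are not listed for polysomal RNA. The fit of all 8 libraries, under which other calls were lost, could not be run for them.

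**Figure D2:**
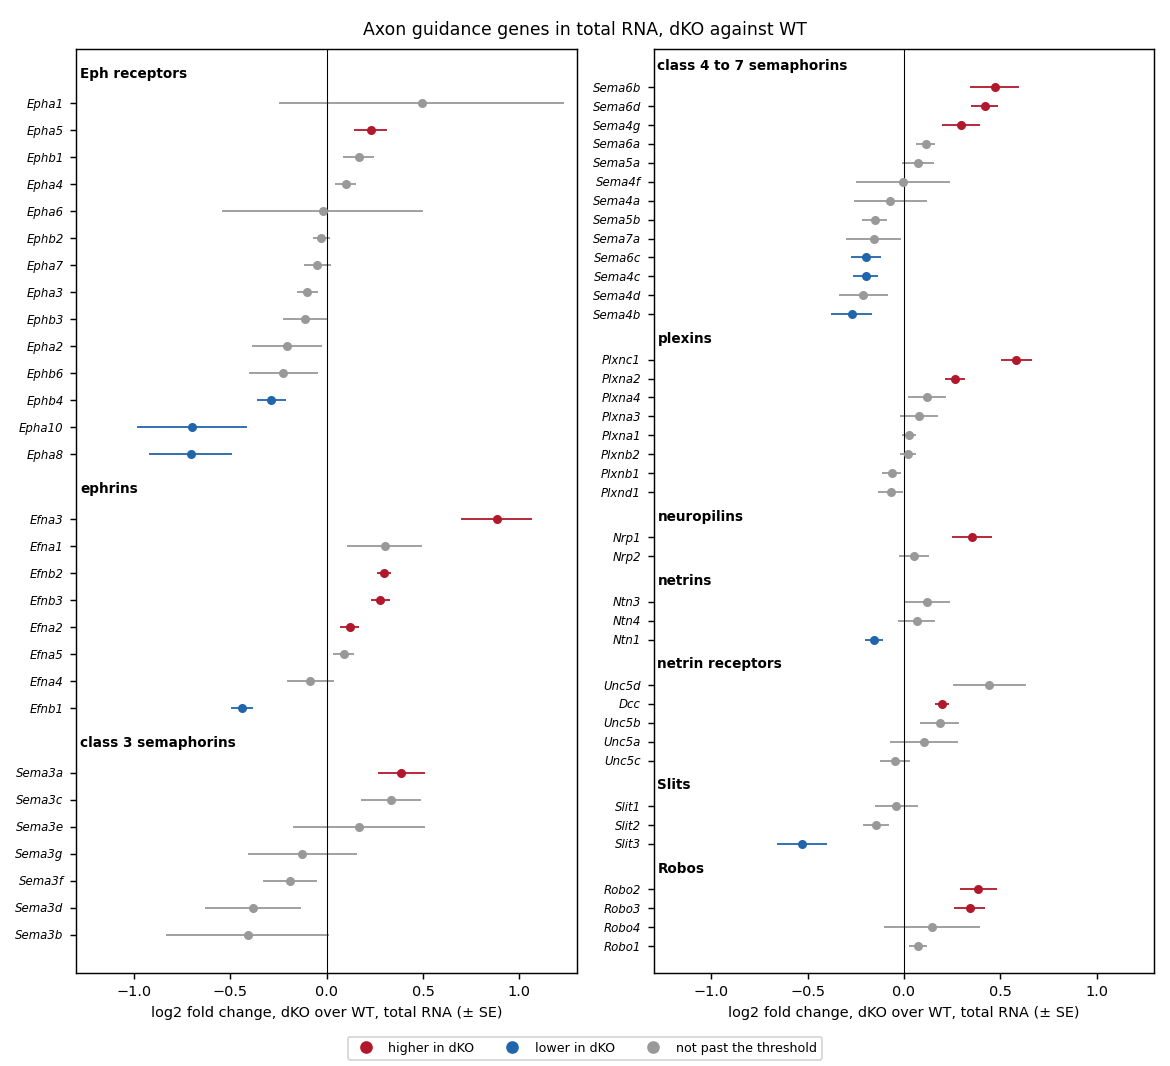
Log2 fold change of dKO over WT in total RNA for the 67 genes (points, with bars of ± 1 SE), by family and sorted within it. Red points are called higher (15), blue points called lower (9), and grey points did not pass an adjusted p of 0.05.

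Netrin and its receptors moved in different directions. Ntn1, the attractant of the floor plate (chr11:68209364-68400823, minus strand), had 191 and 178 CPM in the dKO libraries, against 202 and 210.5 CPM in the WT libraries. Both dKO libraries lay below both WT libraries, with a log2 difference of -0.16 ± 0.05 (SE, adjusted p = 0.00367). This call is fragile, at -0.11 (adjusted p = 0.195) without dKO library 2 and -0.13 (adjusted p = 0.0885) without WT library 2. Dcc, the receptor for netrin attraction, had 380.5 and 388 CPM in the dKO libraries, against 344 and 327 CPM in the WT libraries. Every dKO library was higher than every WT library, by 0.20 ± 0.04 (SE, adjusted p = 3e-07). In a fit of all 8 libraries together neither gene was called, with Dcc at 0.19 (adjusted p = 0.0751) and Ntn1 at -0.17 (adjusted p = 0.0593). Ntn3 and Ntn4, the other netrins (0.12 and 0.07), and Unc5a, Unc5b, Unc5c and Unc5d, receptors for netrin repulsion (0.10, 0.18, -0.05 and 0.44), did not pass. Unc5d was nearest, at 10.4 and 12 CPM in dKO, against 8.54 and 7.94 in WT (adjusted p = 0.0603).

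Among Slits and Robos, 1 ligand was lower and 2 receptors were higher. Slit3, a repellent ligand, had 17.2 and 17.7 CPM in the dKO libraries, against 28.1 and 22.2 CPM in the WT libraries. The groups did not overlap, but the WT libraries were spread, and the log2 difference of -0.53 ± 0.13 (SE, adjusted p = 0.000353) became -0.35 (adjusted p = 0.0974) without WT library 1. Slit1 (26.7 and 32.1 CPM in dKO, against 28.8 and 31.7 in WT) overlapped between genotypes, and Slit2 (-0.15, adjusted p = 0.0971) did not pass. Robo3, the receptor that lets commissural axons approach the midline (chr9:37415669-37433246, minus strand), had 71.4 and 64.3 CPM in the dKO libraries, against 53.1 and 54.1 CPM in the WT libraries. It was higher in both dKO libraries, by 0.34 ± 0.08 (SE, adjusted p = 0.000165). Robo2, a receptor for Slit repulsion, had 45.4 and 51.9 CPM in the dKO libraries, against 34.6 and 39.9 CPM in the WT libraries. Its groups did not overlap (0.39 ± 0.10 (SE, adjusted p = 0.000397)), and the call was lost without dKO library 2, at 0.29 (adjusted p = 0.0703), or without WT library 1, at 0.28 (adjusted p = 0.0673). Robo1, the highest Robo per kb of exon (0.07), and Robo4, the Robo of blood vessels (0.15), did not pass.

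Markers of cell types were compared in the same libraries. The summed level of 5 genes taken as markers of dorsal commissural neurons (Lhx2, Lhx9, Barhl1, Barhl2 and Atoh1) was 598.6 and 581.3 CPM in dKO, against 490 and 465.1 CPM in WT. Of the 5, 3 were called higher, while Barhl1 (0.20, adjusted p = 0.209) and Atoh1 (0.26, adjusted p = 0.155) did not pass. Lhx2 made up most of the sum, with 378.2 and 355 CPM in dKO, against 318.5 and 300 CPM in WT. The sum therefore follows mainly that gene. Whether these genes mark such neurons in tissue labelled brain was not tested. Lhx9, another transcription factor of this list, had 126 and 124 CPM in the dKO libraries, against 91.1 and 83.7 CPM in the WT libraries, which is 0.51 ± 0.06 (SE, adjusted p = 6.86e-15) on the log2 scale. The 6 floor plate markers summed to 125.2 and 122.9 CPM in dKO and to 127.1 and 138.7 CPM in WT, with 1 higher and 2 lower. Summed neuron markers were 4508 and 4512 CPM in dKO and 4716 and 4725 CPM in WT, with 3 called higher and 4 lower. Among them, Nefl had 286.6 and 293.8 CPM in dKO, against 486.2 and 471.9 CPM in WT. Map2 went the other way, with 889.7 and 885.7 CPM in dKO, against 772.4 and 769.8 CPM in WT. Progenitor markers summed to 3695 and 3736 CPM in dKO and to 4088 and 4119 CPM in WT, with 2 higher and 4 lower. The lower sums of both lists thus do not stand for a fall of every marker. The 6 red blood cell markers summed to 2629 and 2628 CPM in dKO and to 4315 and 4382 CPM in WT, with 5 lower. Of the 8 tested markers of mesenchyme 4 were lower and 0 higher, and all 9 summed to 403.8 and 411.7 CPM in dKO and to 492.1 and 463.1 CPM in WT. No marker was at 0. The part of these shifts in the guidance results was not tested.

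Of the 7 secreted class 3 semaphorins, Sema3a was the one called. Sema3a, a repellent of sensory and motor axons, had 27.8 and 30.1 CPM in the dKO libraries, against 22 and 22.2 CPM in the WT libraries. Its dKO libraries were the higher, by 0.39 ± 0.12 (SE, adjusted p = 0.00633), and without dKO library 2 it was 0.33 (adjusted p = 0.108). Sema3c (0.33, adjusted p = 0.0852) and Sema3d (-0.38, adjusted p = 0.255) did not pass although their groups did not overlap. Sema3f, the highest of the class per kb of exon, had 18.1 and 14.8 CPM in dKO, against 20.3 and 17.2 in WT, with overlapping groups. Sema3b, Sema3d, Sema3e and Sema3g were all under 7 CPM in every library, which limits what can be seen.

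Their coreceptors differed from each other. Nrp1, which binds Sema3a, had 39.8 and 40.3 CPM in the dKO libraries, against 31.5 and 31.2 CPM in the WT libraries. The replicates agreed closely and the dKO libraries were the higher, by 0.35 ± 0.10 (SE, adjusted p = 0.00388). Nrp2, which binds Sema3f, had 64.3 and 68 CPM in dKO, against 60.1 and 67.6 in WT, with overlapping groups (0.05, adjusted p = 0.67). Nrp1 and Sema3a were both higher, and Nrp2 and Sema3f both did not pass.

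Among the 13 semaphorins of classes 4 to 7, most of them membrane-bound, 3 were higher, 3 lower and 7 did not pass. Sema6d, a transmembrane ligand of Plxna1, had 89.5 and 86.3 CPM in the dKO libraries, against 70.1 and 61.4 CPM in the WT libraries. It was higher in both dKO libraries, by 0.42 ± 0.07 (SE, adjusted p = 6.46e-08). Sema6b, another transmembrane ligand, had 24.9 and 26.1 CPM in dKO, against 16.8 and 20.1 in WT, and Sema4g had 43.1 and 43.1 CPM in dKO, against 33.2 and 37 in WT, again with no overlap. Their log2 fold changes were 0.47 ± 0.13 (SE, adjusted p = 0.00156) and 0.30 ± 0.10 (SE, adjusted p = 0.0127). The call for Sema6b was lost without WT library 1, at 0.34 (adjusted p = 0.0922), and that for Sema4g without WT library 1 or either dKO library (adjusted p = 0.0656 to 0.211).

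The 3 lower ones were Sema4b, Sema4c and Sema6c, at log2 fold changes of -0.27, -0.20 and -0.20. Sema4c, a ligand of Plxnb2 and the highest of these classes in WT per kb of exon, had 89.6 and 86.3 CPM in the dKO libraries, against 104 and 97.7 CPM in the WT libraries. Both dKO libraries were the lower (-0.20 ± 0.07 (SE, adjusted p = 0.0101)), but the call was lost without dKO library 2, at -0.17 (adjusted p = 0.119), or without WT library 1, at -0.16 (adjusted p = 0.154). Sema4b was not called with any 1 of the 4 libraries left out (adjusted p = 0.0836 to 0.179), and Sema6c kept its call only without dKO library 2 (otherwise adjusted p = 0.0767 to 0.466). Sema5b (-0.15, adjusted p = 0.0516) and Sema6a (0.11, adjusted p = 0.0603) were just outside the threshold.

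Plexins, the signalling receptors of semaphorins, were called in 2 of 8 cases, both higher. Plxnc1, the receptor of Sema7a, had 74 and 71.3 CPM in the dKO libraries, against 45.8 and 51.2 CPM in the WT libraries. The dKO libraries lay well above the WT ones, with a log2 difference of 0.58 ± 0.08 (SE, adjusted p = 1.16e-11), the largest rise of any receptor here. Plxna2, a receptor for class 6 semaphorins and for neuropilin complexes, had 175 and 172 CPM in the dKO libraries, against 138 and 150.4 CPM in the WT libraries and also did not overlap (0.26 ± 0.05 (SE, adjusted p = 2.17e-06)). Sema7a itself did not pass (-0.16). The plexins highest per kb of exon, Plxna1, Plxnb2 and Plxnb1, had overlapping groups and log2 fold changes of 0.03, 0.02 and -0.06.

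Ephrins had the largest share of calls of the families, with 4 of 8 higher and 1 lower. That is 62.5% called, beside 30.7% of all tested genes. The share rests on few genes, and the call of Efna2 among them was fragile, as given below. Robos and neuropilins, smaller families, had 50% called. Efna3 (chr3:89313899-89322965, minus strand), tethered by a lipid anchor, had 13.1 and 13.9 CPM in the dKO libraries, against 6.69 and 7.94 CPM in the WT libraries. The dKO libraries were close to each other and far above WT, and the log2 difference of 0.88 ± 0.19 (SE, adjusted p = 1.94e-05) was the largest of all 67 genes. Efnb2, a transmembrane ephrin of neurons, somites and arteries, had 328 and 336 CPM in the dKO libraries, against 267 and 274 CPM in the WT libraries. Efnb3, the transmembrane ephrin of the midline, had 179.7 and 184 CPM in the dKO libraries, against 144 and 156 CPM in the WT libraries. Both were higher in each dKO library, by 0.30 ± 0.04 (SE, adjusted p = 1.97e-13) and 0.28 ± 0.05 (SE, adjusted p = 2.81e-07). Efnb1 (chrX:99136130-99148991, plus strand), the remaining transmembrane ephrin, went the other way with 104 and 102 CPM in the dKO libraries, against 146 and 132 CPM in the WT libraries. Its groups did not overlap and it was lower, with a log2 difference of -0.44 ± 0.06 (SE, adjusted p = 7.88e-13), so the 3 transmembrane ephrins split.

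Efna2, the highest ephrin per kb of exon, had 178 and 185 CPM in dKO, against 167 and 167 in WT and a small log2 difference of 0.12 ± 0.05 (SE, adjusted p = 0.0462). That call was lost with any 1 library left out (adjusted p = 0.0698 to 0.336). Efna5, which repels retinal and motor axons, did not pass (0.09), nor did Efna1 (0.30) or Efna4 (-0.09).

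Of the 14 Eph receptors, 1 was higher and 3 were lower. Ephb4, the venous receptor for Efnb2, had 61.3 and 58.1 CPM in the dKO libraries, against 74.5 and 71.4 CPM in the WT libraries. It was lower in both dKO libraries, with a log2 difference of -0.29 ± 0.08 (SE, adjusted p = 0.000957), while the 8 endothelial markers summed to 185.7 and 188.1 CPM in dKO and to 182.9 and 182.3 CPM in WT, with none called. Epha8, a receptor for the lipid-anchored ephrins, was low in level at 5.6 and 6.12 CPM in the dKO libraries, against 9.74 and 9.4 CPM in the WT libraries. The groups did not overlap (-0.71 ± 0.21 (SE, adjusted p = 0.00512)), and without dKO library 1 it was -0.65 (adjusted p = 0.0634). Epha10, a receptor without an active kinase and lower still at 2.86 and 4 CPM in dKO, against 6.11 and 5.03 in WT, passed narrowly (-0.70 ± 0.29 (SE, adjusted p = 0.0465)) and was lost without dKO library 1 (-0.48 (adjusted p = 0.351)) or WT library 1 (-0.56 (adjusted p = 0.27)). Epha5, also a receptor for lipid-anchored ephrins, had 56 and 56.6 CPM in dKO, against 47.1 and 49 in WT and a log2 difference of 0.23 ± 0.09 (SE, adjusted p = 0.032), a call lost with any 1 library left out (adjusted p = 0.0688 to 0.197). The abundant receptors Ephb2, Epha3, Epha4 and Epha7, of which Epha4 steers motor axons and corticospinal axons, did not pass (-0.03, -0.10, 0.10 and -0.05).

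**Figure D3:**
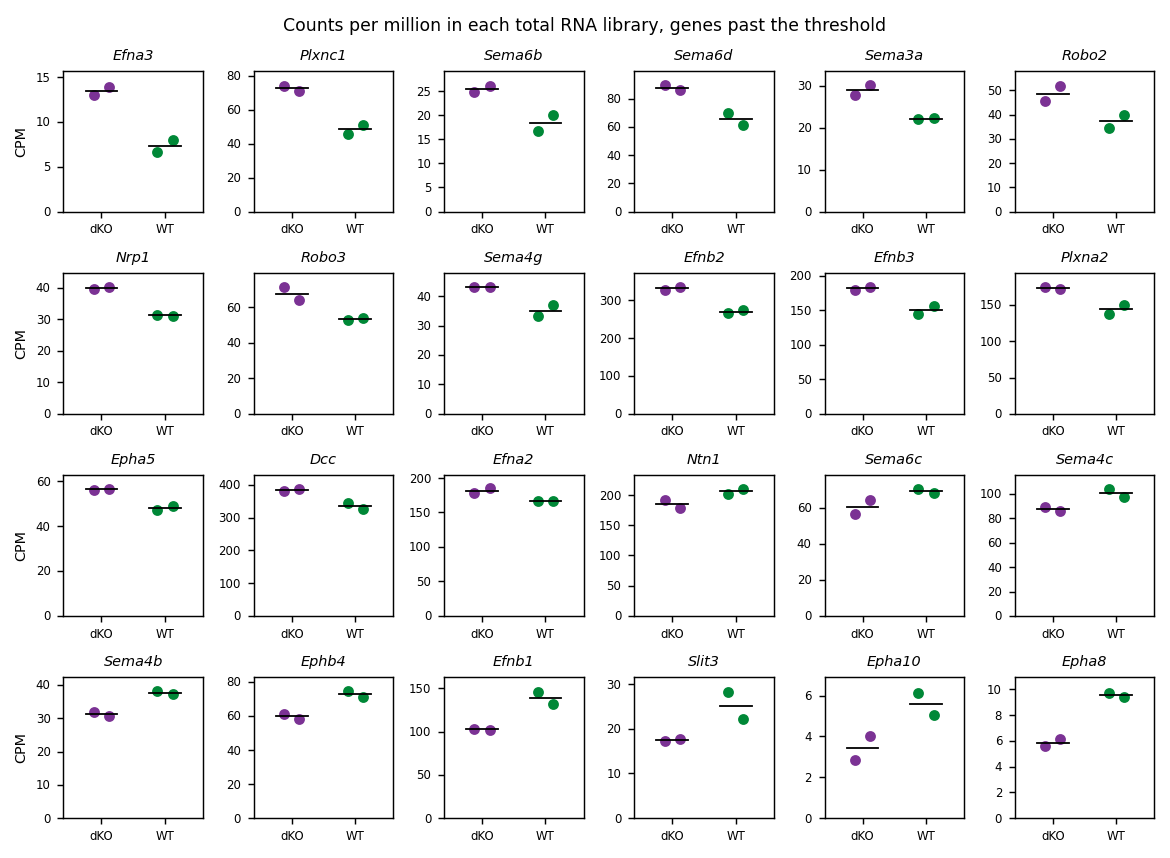
CPM of each total RNA library for the 24 called genes, with dKO at left and WT at right, points for the 2 libraries of a genotype and a line at their mean, all axes starting at 0. The genotypes overlap in none of the 24 panels, and Efna3 shows the widest relative gap. The panels were picked by the genotype test, and groups also did not overlap for guidance genes that were not called. The lack of overlap is therefore no separate evidence.

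By role, 8 of 34 ligands were higher and 6 lower, and 7 of 33 receptors were higher and 3 lower. That is 23.5% and 17.6% of ligands and 21.2% and 9.09% of receptors, beside 14.7% and 16% of all tested genes. As examples of a ligand and its receptor, Ntn1 was lower and Dcc higher, Slit3 was lower and Robo2 higher, and Sema3a and Nrp1 were both higher. The calls of Ntn1, Slit3, Robo2 and Sema3a were each lost when certain single libraries were left out, as given above. Transcript GC content, which the name rule did not use, was also related to the values. Over the 67 genes its Spearman correlation with the log2 fold change was -0.36, against -0.09 over 14472 genes, given as a description since all points share the same libraries. Of the 22 guidance genes below 50% GC, 8 were higher and 0 lower, and of the 45 at or above it, 7 were higher and 9 lower. Over all tested genes 1224 of 7395 below 50% GC were higher and 1116 lower, and 908 of 7077 at or above it were higher and 1209 lower. After a loess adjustment for GC content, 15 guidance genes were higher and 7 lower, beside 14.6% higher and 15.9% lower of all genes.

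Other genes of guidance outside these families were taken as further lists. Of 39 tested cues, coreceptors and adhesion molecules, 21 were higher, 3 were lower and 15 did not pass, with a median log2 fold change of 0.22. That 53.8% stands beside 14.7% higher over all tested genes. This list and that of the effectors below were chosen with earlier results of these data known. Neither was matched to all genes for level, on which passing the test also depends. Rgmb, a repulsive guidance molecule and BMP coreceptor, had 405 and 397 CPM in the dKO libraries, against 255 and 281 CPM in the WT libraries, which is 0.58 ± 0.04 (SE, adjusted p = 4.55e-55) on the log2 scale. Larger rises at lower levels were seen for Dscaml1 (1.04 ± 0.32 (SE, adjusted p = 0.00488)), Lrrc4c (0.80 ± 0.15 (SE, adjusted p = 2.78e-06)), a netrin-G ligand, and Flrt1 (0.69 ± 0.11 (SE, adjusted p = 8.9e-09)), whose family binds Unc5 receptors. The Dcc ligand Draxin (0.35), the netrin-binding Dscam (0.37) and the Sonic hedgehog coreceptors Boc (0.27) and Cdon (0.33) were also higher. The 3 lower genes were Celsr1 (-0.25), Ptk7 (-0.22) and Neo1 (-0.18), a Dcc relative that binds both netrin and Rgm proteins.

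Among 64 tested effectors inside the cell, 10 were higher and 17 lower, with a median of -0.04. That is 15.6% higher and 26.6% lower, beside 14.7% and 16% of all tested genes. Cdk5r1, the activator of Cdk5, had 334 and 333 CPM in the dKO libraries, against 210.4 and 218 CPM in the WT libraries, which is 0.64 ± 0.04 (SE, adjusted p = 4.94e-55) on the log2 scale. Trim67 (0.40), a Dcc-binding ubiquitin ligase, Evl (0.31), an actin regulator, and Yes1 (0.23), a Src family kinase, followed. The largest falls were Rnd1 (-0.75 ± 0.24 (SE, adjusted p = 0.00793)), a plexin-binding GTPase, Trim9 (-0.41 ± 0.09 (SE, adjusted p = 6.66e-05)), another Dcc-binding ligase, and Dpysl4 (-0.38) and Crmp1 (-0.36), both of the collapsin response mediator family downstream of Sema3a. The relatives Dpysl2, Dpysl3 and Dpysl5 were lower too (-0.15, -0.19 and -0.30).

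The second comparison asked how dKO and WT differed in polysomal RNA. All 35 listed guidance genes were called, 28 higher and 7 lower in dKO, with a median log2 fold change of 0.74. Of all 5777 tested genes of this table, 99.7% were called, 47.2% higher and 52.5% lower, with a median of -0.35, so being called sets no gene apart. Among listed genes with at least 100 counts on average, none had a dKO to WT log2 ratio of unscaled counts between -2.04 and -1.71, an interval that holds the log2 ratio of the column totals. Abundant genes with little difference between genotypes are thus absent. Passing the test was largely fixed by which genes are listed, so adjusted p-values in this fraction are no separate evidence of a difference. The remaining 32 guidance genes are not among the listed genes and were not analysed here in this fraction. CPM in this fraction refers to the listed genes. Another scaling moves every log2 fold change together, the median of all genes by 0.24 with RLE factors and by -0.16 with column totals, and no guidance gene changed sign under these or DESeq2.

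Direction in polysomal RNA followed transcript GC content. The 7 lower genes had 39.2 to 45.6% GC and the 28 higher ones 45.5 to 63.5%. At or above 50% GC, 27 of 27 guidance genes were higher, beside 88% of all tested genes, and below it 1 of 8 was, beside 11.7% of all. The Spearman correlation of GC content with the log2 fold change was 0.74 over the 35 genes and 0.76 over 5741 genes, whose points share the same libraries. After the GC adjustment 3 guidance genes were higher, 8 lower and 24 not called, and 21 of the 35 changed sign. Over all genes the adjusted fit called 21.8% higher and 25.6% lower. After the adjustment the correlation with GC content was -0.0011 over all genes but -0.21 over the 35 guidance genes. A trend in the reverse direction thus remained among guidance genes, and their adjusted calls carry that limit. What links GC content to the values was not tested.

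**Figure D4:**
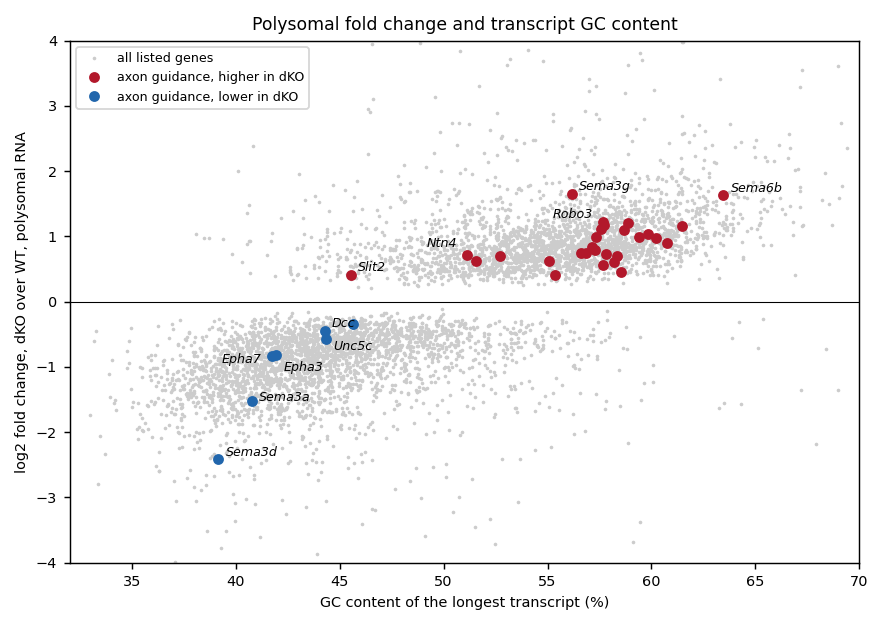
Log2 fold change of dKO over WT in polysomal RNA against the GC content of the longest transcript, for all listed genes (grey) and the 35 guidance genes (red higher, blue lower). Genes beyond the axis limits are not drawn. The guidance genes lie within the cloud of all genes, with the blue points at 39.2 to 45.6% GC.

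By unadjusted value the largest rises were Sema3g, Sema6b, Sema7a, Slit1, Robo3 and Sema6c. Robo3 had 174 and 166 CPM in dKO polysomal RNA, against 80.2 and 70.8 CPM in WT polysomal RNA. The groups did not overlap, with 1.17 ± 0.10 (SE, adjusted p = 0.000209), and after the GC adjustment it was 0.17 ± 0.10 (SE, adjusted p = 0.193), no longer called. Sema6b had 82 and 98.6 CPM in dKO polysomal RNA, against 30 and 28.5 CPM in WT polysomal RNA, 1.63 ± 0.14 (SE, adjusted p = 0.000205) on the log2 scale, and 0.27 after adjustment. Sema3g, at 1.65 ± 0.37 (SE, adjusted p = 0.00538), rests on low levels, with 22.1 and 11.8 CPM in dKO polysomal RNA, against 4.76 and 5.77 CPM in WT polysomal RNA. Its dKO libraries were far apart from each other, and the groups did not overlap. After the GC adjustment it was 0.77 ± 0.34 (SE, adjusted p = 0.11), not called. The others, Sema7a (1.21), Slit1 (1.21) and Sema6c (1.15), became 0.22, 0.12 and -0.11 after adjustment, none of them called.

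The largest falls were Sema3d, Sema3a, Epha7, Epha3, Unc5c and Dcc. Sema3a had 7.65 and 14.6 CPM in dKO polysomal RNA, against 33 and 33.2 CPM in WT polysomal RNA. Both dKO libraries were far lower (-1.53 ± 0.28 (SE, adjusted p = 0.00261)), although they also differed from each other, and the adjusted value was -0.48 ± 0.25 (SE, adjusted p = 0.161). Sema3d, a low-level relative, had 2.35 and 1.18 CPM in dKO polysomal RNA, against 9.21 and 8.77 CPM in WT polysomal RNA (-2.42 ± 0.42 (SE, adjusted p = 0.00206), adjusted for GC -1.22, not called). Dcc had 323 and 381 CPM in dKO polysomal RNA, against 477 and 485 CPM in WT polysomal RNA. It was lower in both dKO libraries (-0.45 ± 0.09 (SE, adjusted p = 0.0032)), and after the GC adjustment it was higher, at 0.25 ± 0.06 (SE, adjusted p = 0.017). With DESeq2 it was -0.21 (adjusted p = 0.0578), not called. Epha7, Epha3 and Unc5c, at -0.83, -0.82 and -0.57, also changed sign, to 0.14, 0.13 and 0.12, none called. The polysomal Unc5c call was also lost with DESeq2, at -0.34 (adjusted p = 0.105), and without WT library 1, at -0.54 (adjusted p = 0.0705).

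Slit2, the Slit most studied at the midline, was the 1 guidance gene below 50% GC that was called higher. It had 154 and 148 CPM in dKO polysomal RNA, against 114 and 112 CPM in WT polysomal RNA. The dKO libraries were the higher (0.42 ± 0.09 (SE, adjusted p = 0.00393)), and the GC adjustment raised the value to 0.96 ± 0.09 (SE, adjusted p = 0.000454). The unadjusted call was lost without WT polysomal library 1 or 2, at 0.43 (adjusted p = 0.0633) and 0.40 (adjusted p = 0.08). Ntn4, a netrin of basement membranes, was 0.72 before and 0.41 ± 0.11 (SE, adjusted p = 0.0225) after adjustment. Slit2, Ntn4 and Dcc were the 3 genes called higher after adjustment. The 8 genes called lower after adjustment were Efna2 (-0.61), Efnb1 (-0.43), Efnb3 (-0.43), Ephb2 (-0.41), Ephb4 (-0.34), Plxnd1 (-0.32), Ntn1 (-0.27) and Plxna1 (-0.18), each of them called higher before it.

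**Figure D5:**
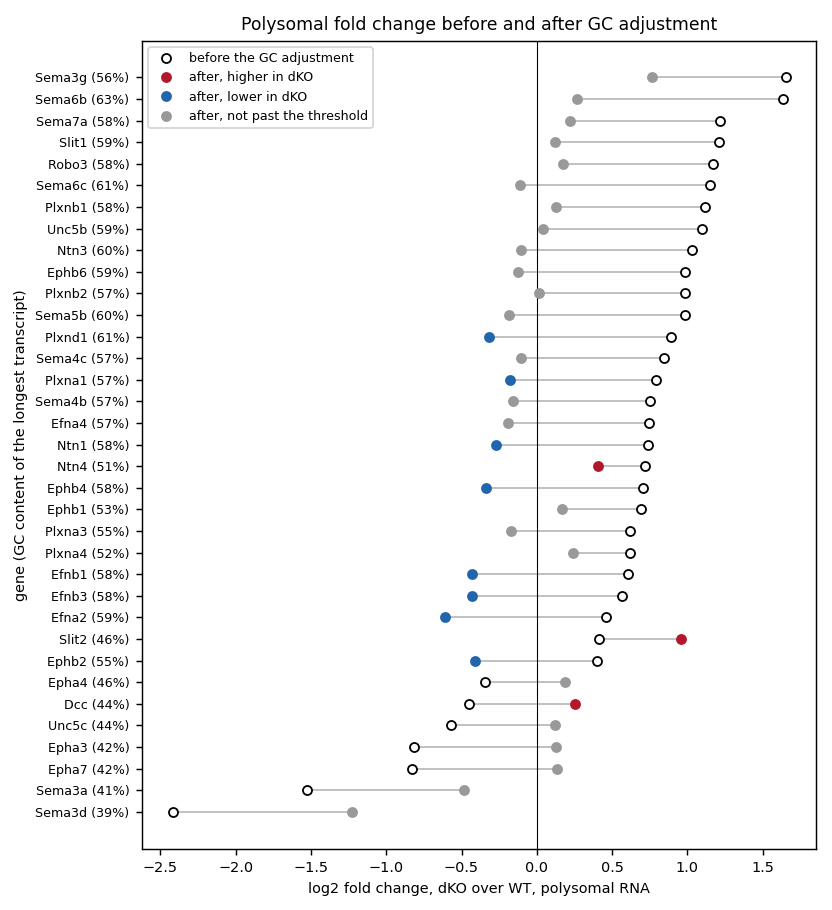
Polysomal log2 fold change of dKO over WT for the 35 listed guidance genes before (open) and after (filled) the GC adjustment, with transcript GC content beside each name. After adjustment 3 genes are called higher (red), 8 lower (blue) and 24 are not called (grey).

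Set beside each other, the fractions gave opposite calls for 8 of the 12 guidance genes that were listed and called in total RNA. Since 99.7% of all tested genes were called in polysomal RNA, nearly every such gene had to show either the same or the opposite call. The share of opposite calls over all listed genes was not computed, so this count does not set guidance genes apart. Dcc and Sema3a were higher in dKO total RNA and lower in dKO polysomal RNA. Efnb1, Ephb4, Sema4b, Sema4c, Sema6c and Ntn1 were lower in total RNA and higher in polysomal RNA. The other 4, Efna2, Efnb3, Robo3 and Sema6b, were higher in both. With the GC adjustment in polysomal RNA, Efnb1, Ephb4 and Ntn1 were instead lower and Dcc higher, as in total RNA, while Efna2 and Efnb3 were lower, opposite to total RNA. Robo3, Sema6b, Sema3a, Sema4b, Sema4c and Sema6c were then not called in polysomal RNA. Without that adjustment, the polysomal call of Dcc was lost with DESeq2, and that of Efna2 with column totals, at 0.30 (adjusted p = 0.0704) in place of 0.46.

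Another comparison tested that difference itself, as the interaction of genotype with fraction over all 8 libraries. All 35 guidance genes passed, 28 with a higher and 7 with a lower dKO to WT ratio in polysomal than in total RNA, where 89.5% of 5780 genes passed, 43.7% higher and 45.8% lower. Only genes listed for polysomal RNA enter this test, so its calls also depend on that listing. The largest differences were Sema3g (1.81 ± 0.47 (SE, adjusted p = 0.0042)), Sema7a (1.41 ± 0.19 (SE, adjusted p = 6.55e-05)), Sema6c (1.39) and Slit1 (1.29) upward, and Sema3d (-2.0041 ± 0.47 (SE, adjusted p = 0.00254)), Sema3a (-1.86 ± 0.28 (SE, adjusted p = 0.000136)), Epha7 (-0.74) and Epha3 (-0.67) downward. After the GC adjustment 6 guidance genes passed, 2 higher (Slit2 at 1.1025 and Plxnb1 at 0.25) and 4 lower (Sema3a at -0.81, Efna2 at -0.67, Efnb3 at -0.65 and Ephb2 at -0.32), beside 20.3% higher and 21.6% lower of all genes. Slit2, Plxnb1 and Sema3a were called with the same sign before and after the adjustment, while Efna2, Efnb3 and Ephb2 were called with opposite signs. With column totals in place of TMM, the unadjusted differences of Efna2 and Efnb3 were 0.19 (adjusted p = 0.207) and 0.14 (adjusted p = 0.135), not called.

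The last comparison set polysomal against total RNA in WT tissue, for the 35 listed genes. Here 1 guidance gene was higher in polysomal RNA and 5 were lower, while 12% of 5780 genes were called, 3.48% higher and 8.51% lower. With both tables scaled together over their shared genes, Efna2 had 155 and 156 CPM in WT polysomal RNA, against 249.6 and 249.8 CPM in WT total RNA. Its polysomal libraries were the lower (-0.69 ± 0.10 (SE, adjusted p = 0.00209)). Efnb3 had 259 and 264 CPM in WT polysomal RNA, against 215 and 233 CPM in WT total RNA, and here the polysomal libraries were the higher (0.22 ± 0.06 (SE, adjusted p = 0.03)). Plxnb1 (-0.44 ± 0.08 (SE, adjusted p = 0.00467)), Sema5b (-0.28), Plxna1 (-0.22) and Plxnb2 (-0.19) were lower as well. Scaling by column totals gave 273 higher and 311 lower over all genes, in place of 201 higher and 492 lower, and Sema5b, Plxna1 and Plxnb2 were then not called. Leaving out dKO polysomal library 1 or 2, which enter only through the shared spread, gave 13 calls each, and leaving out a WT library gave 1 or 2, so the number rests on single libraries. Dcc (-0.06), Robo3 (-0.08), Ntn1 (-0.13) and Sema3a (0.0064) did not pass.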

How the data were processed

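Per the labels, strand-specific libraries were made from Trizol-extracted RNA, and the submitters' processing notes name the tools FastQC, TopHat and HTSeq. They also list mm9, mm10 and GRCm38, with no roles. The authors deposited whole-number read counts per gene, not normalized, in 1 table per fraction. How the polysomal genes were picked is not given there. Counts were tested with edgeR 4.0.16 in R 4.3.3 (TMM scaling, filterByExpr, quasi-likelihood test, Benjamini-Hochberg adjustment over all tested genes, threshold 0.05), with each genotype comparison on the 4 libraries of its fraction and the other comparisons on all 8 over 5802 shared genes. Gene places, lengths, GC content and 3′ UTRs came from GENCODE M21 (GRCm38), which matched all 67 members. The GC adjustment fits a loess curve (span 0.5) to how far a library departs from its fraction's WT mean. The fits were tested on simulated data.

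The members, the gene lists and the tests were chosen with earlier results of these data known. Genes were named by a rule: up to 12 rises and 12 falls among called members that average 5 CPM or more in total RNA, 6 each in polysomal RNA and 4 each elsewhere, the most abundant member of each family, a few core genes, and up to 4 of each further list in each direction. Other members are named within their family with their value. Alternatives were other scalings, DESeq2 1.42.0, other low-count filters, the replicate number as a block, the GC adjustment, all libraries in 1 fit, and each library left out in turn.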

Additional observations from a re-analysis of the deposited data

Results flagged for a closer look

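All 35 listed guidance genes were marked because the dKO to WT difference itself differed between polysomal and total RNA in the interaction test over all 8 libraries, as did 89.5% of all genes tested. The genes tested are those listed for polysomal RNA, so passing also depends on that listing. Values are the polysomal minus the total log2 fold change of dKO over WT. Eph receptors differed by -0.67 for Epha3, -0.41 for Epha4, -0.74 for Epha7, 0.57 for Ephb1, 0.47 for Ephb2, 1.03 for Ephb4 and 1.25 for Ephb6. Ephrins differed by 0.37 for Efna2, 0.86 for Efna4, 1.08 for Efnb1 and 0.32 for Efnb3. For class 3 semaphorins the differences were -1.86 for Sema3a, -2.0041 for Sema3d and 1.81 for Sema3g. Semaphorins of classes 4 to 7 had 1.06 for Sema4b, 1.08 for Sema4c, 1.17 for Sema5b, 1.2028 for Sema6b, 1.39 for Sema6c and 1.41 for Sema7a. Plexins had 0.80 for Plxna1, 0.57 for Plxna3, 0.54 for Plxna4, 1.22 for Plxnb1, 0.9997 for Plxnb2 and 0.9983 for Plxnd1. The netrins had 0.93 for Ntn1, 0.96 for Ntn3 and 0.69 for Ntn4. Netrin receptors had -0.60 for Dcc, 0.96 for Unc5b and -0.48 for Unc5c. Slits had 1.29 for Slit1 and 0.60 for Slit2. The listed Robo had 0.87 for Robo3. After the GC adjustment 6 of the 35 passed, 2 upward and 4 downward, beside 20.3% upward and 21.6% downward of all 5780 genes.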

How the results depend on the processing

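In total RNA 24 guidance genes were called. DESeq2 called 2942 genes in all, against 4485. The fit over all 8 libraries, which tests 5780 genes, called 1286 genes. It covers 12 of the 24 called guidance genes and called 5 of them. Leaving out each library in turn gave 14 to 20 guidance genes. None of the 24 changed sign under any alternative run, 14 lost their call under at least 1, and 4 other guidance genes were called under some alternative only.

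In polysomal RNA the GC adjustment gave 2737 genes and 11 guidance genes, and 2629 and 11 when combined with the replicate block. It changed the sign of 21 of the 35. Among the 6 largest unadjusted rises this was Sema6c (-0.11, and -0.11 with the block). Among the 6 largest falls these were Epha7 (0.14 and 0.14), Epha3 (0.13 and 0.12), Unc5c (0.12 and 0.12) and Dcc (0.25 and 0.25). For the interaction it gave 2420 genes and 6 guidance genes, 2326 and 6 with the block, and changed the sign of 17 of the 35, which include Epha7 (0.22 and 0.22) and Epha3 (0.26 and 0.25). No guidance gene changed sign in either comparison under any other alternative. What links GC content to the values was not tested.

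For WT polysomal against total RNA, column totals gave 3 guidance genes in place of 6 and moved the calls over all genes to 273 higher and 311 lower, in place of 201 higher and 492 lower. Leaving out a library gave 179 to 1998 genes and 1 to 13 guidance genes.

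The replicate block alone gave 22 guidance genes in total RNA, 35 in polysomal RNA, 5 in the WT comparison and 35 in the interaction. Replicate numbers gave no sign of a pairing. Deviations of same-numbered dKO and WT libraries correlated at -0.04 in total and 0.06 in polysomal RNA. Those of same-numbered polysomal and total libraries correlated at 0.04 in dKO and -0.03 in WT. Such values cannot show that the libraries came from separate tissue. With 2 libraries a group, genes under about 5 CPM had standard errors wide enough to hide moderate differences, and the polysomal values cover the listed genes alone.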
